A study of Mus musculus with 32 samples.

Results

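The 8 genes described here, Adipoq, Plin1, Plin4, Fabp4, Pparg, Cfd, Lep and Cidec, are genes known from fat cells, followed in skeletal muscle of mice that model the X-linked muscle disease myotubular myopathy. They were chosen by symbol, and each symbol matched 1 of the 54838 gene identifiers in the table of RSEM expected counts. The RNA came from the tibialis anterior (TA), a muscle of the lower leg, of C57BL6/J mice that were either wild type (WT) or hemizygous for a deletion of exon 4 of the X-linked gene Mtm1 (Mtm1 KO). Mtm1 encodes myotubularin, a lipid phosphatase, and the deletion is present in every cell of the animal and not in muscle alone. Mice were sampled at postnatal day 1, 14, 21 and 35 (P1, P14, P21 and P35), with n=4 libraries for each of the 8 combinations of genotype and age and 32 libraries in all.

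White fat cells store triglyceride in a large lipid droplet and release hormones. PPARG, a nuclear receptor, switches on the fat cell programme together with C/EBP factors, and perilipins and CIDEC coat the droplet and control its growth and breakdown. In muscle, fat cells lie between the fibres and in the surrounding connective tissue, and several of these genes are also used by other cells: PLIN4 by muscle fibres, and FABP4 by capillary endothelium and macrophages. In RNA from whole muscle, fewer cells of a type and less RNA per cell cannot be told apart.

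On the mouse genome build GRCm38 (GENCODE M21), the genes for the secreted proteins are Adipoq (adiponectin, ENSMUSG00000022878, chr16:23146536-23158028, plus strand), Cfd (adipsin, or complement factor D, ENSMUSG00000061780, chr10:79890853-79892655, plus strand) and Lep (leptin, ENSMUSG00000059201, chr6:29060220-29073877, plus strand). Genes for lipid droplet proteins are Plin1 (perilipin 1, ENSMUSG00000030546, chr7:79720218-79732903, minus strand), Plin4 (perilipin 4, ENSMUSG00000002831, chr17:56100591-56109803, minus strand) and Cidec (ENSMUSG00000030278, chr6:113424634-113435760, minus strand). Fabp4 (an intracellular fatty acid carrier, ENSMUSG00000062515) spans chr3:10204088-10208576 on the minus strand, and Pparg (ENSMUSG00000000440) spans chr6:115360951-115490399 on the plus strand. Counts were RSEM estimates per gene. Only Plin4 shared exon sequence with another annotated gene, 17 bases with Hdgfl2 on the opposite strand, and an antisense gene inside Pparg, Gm44079, shared 0 exon bases with it.

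The 250 bases before the RefSeq start of 4 of these genes (build GRCm38.p6) are shown because the first 3 genes rose together in KO muscle at P35 and Plin4 did not. Capitals mark every match, on either strand, to the C/EBP core TTGCNNAA, the CCAAT box CCAAT or the TATA box TATAA.
Adipoq, chr16:23146286-23146535, plus strand: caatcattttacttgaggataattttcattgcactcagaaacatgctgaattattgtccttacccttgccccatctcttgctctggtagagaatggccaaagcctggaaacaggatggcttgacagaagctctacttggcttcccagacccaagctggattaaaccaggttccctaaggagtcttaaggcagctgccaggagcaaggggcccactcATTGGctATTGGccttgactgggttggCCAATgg
Lep, chr6:29059971-29060220, plus strand: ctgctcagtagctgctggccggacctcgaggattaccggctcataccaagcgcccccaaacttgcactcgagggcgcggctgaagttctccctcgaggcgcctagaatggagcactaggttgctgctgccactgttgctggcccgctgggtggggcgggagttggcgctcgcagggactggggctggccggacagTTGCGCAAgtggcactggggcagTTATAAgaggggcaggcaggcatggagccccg
Plin1, chr7:79732777-79733026, minus strand: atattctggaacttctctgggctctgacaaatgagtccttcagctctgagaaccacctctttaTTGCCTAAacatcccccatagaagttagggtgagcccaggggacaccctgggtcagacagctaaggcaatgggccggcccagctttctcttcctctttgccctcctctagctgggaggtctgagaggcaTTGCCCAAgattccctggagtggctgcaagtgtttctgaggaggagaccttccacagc
Plin4, chr17:56109783-56110032, minus strand: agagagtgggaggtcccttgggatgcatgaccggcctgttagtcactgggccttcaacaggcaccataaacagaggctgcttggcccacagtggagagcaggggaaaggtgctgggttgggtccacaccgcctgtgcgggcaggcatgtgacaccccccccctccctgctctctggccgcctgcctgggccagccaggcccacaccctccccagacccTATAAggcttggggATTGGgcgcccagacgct
The C/EBP core occurred once before Lep, with its last base 48 bases before the start, and at 2 places before Plin1, 180 and 51 bases before the start. It did not occur in the windows shown for Adipoq and Plin4. Of all 32851 promoter windows of this length, 9.56% held the C/EBP core. The window of Adipoq held 3 CCAAT boxes, ending 30, 23 and 3 bases before the start, and that of Plin4 held 1, while 33.8% of all windows held at least 1. Before Lep, the letters TATAA and their reverse complement overlapped, ending 27 and 28 bases before the start, and Plin4 had 1 TATA box ending 28 bases before it, a pattern found in 22.8% of all windows. The nuclear receptor half-site AGGTCA, present in 14.0% of all windows, was not found in these 4 windows, and the GC box GGGCGG (32.7% of all windows) occurred only before Lep, once. The window of Cfd held none of the 5 patterns. Of the 2 Cidec windows, 1 held the C/EBP core, ending 191 bases before the start. Pparg, which did not rise at P35, had 3 windows. Its window 3 held the core at 2 places, 208 and 9 bases before the start, and its other windows held none. These matches are letters in a window and were not tested as binding sites, and Fabp4 is named only.

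Libraries held 49321019 to 85631391 counts. Levels are given as CPM (counts scaled to a common library size) with trimmed mean of M-values (TMM) scaling over all 32 libraries, whose factors ran from 0.726 to 1.7, with those of the P1 libraries between 1.44 and 1.7. A gene was called where edgeR's quasi-likelihood (QL) test gave an adjusted P (Benjamini-Hochberg over all genes tested) under 0.01 and a change over 1.5-fold. Mtm1 itself was at 5.26-6.02 CPM in WT and 2.32-3.91 CPM in KO libraries at P1, and at 18.9-24.9 CPM in WT and 2.64-4.51 CPM in KO libraries at the later ages, with no overlap at any age. Its log2 fold change was -0.98 at P1, where it was not called (adjusted P=0.0669, edgeR's QL test), and -2.34 to -2.71 later. The fibre genes that define muscle (Acta1, Ckm, Myh4 and 5 others) summed to 18030-34270 CPM at P1 and to 81840-193300 CPM later, so each library held muscle RNA.

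Per kilobase of the longest coding transcript, Fabp4 had the highest mean of the 8 genes in each of the 8 groups and Lep the lowest. In WT muscle at P1, Fabp4 was at 260.4 ± 57.7 CPM per kb (SD, n=4), Cfd at 65.2 ± 41.7, Adipoq at 28.1 ± 15.6, Plin4 at 11.0 ± 1.05, Plin1 at 10.04 ± 4.89, Cidec at 9.20 ± 5.69, Pparg at 3.05 ± 0.722 and Lep at 0.0574 ± 0.0315. Fabp4, Pparg and Lep were each apart from their neighbours in this order, whereas the ranges of neighbours from Cfd to Cidec overlapped, except that Plin4 (9.65-11.8) lay under Adipoq (15.2-49.1). In KO muscle at P35, the means were 429.8 ± 49.1 CPM per kb for Fabp4, 78.0 ± 47.9 for Cfd, 21.7 ± 12.4 for Plin4, 9.34 ± 5.34 for Adipoq, 5.17 ± 2.61 for Cidec, 2.99 ± 1.80 for Plin1, 1.65 ± 0.301 for Pparg and 0.767 ± 0.467 for Lep. Only Fabp4 was apart from its neighbour there, and the ranges of all later neighbours overlapped.

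**Figure D1:**
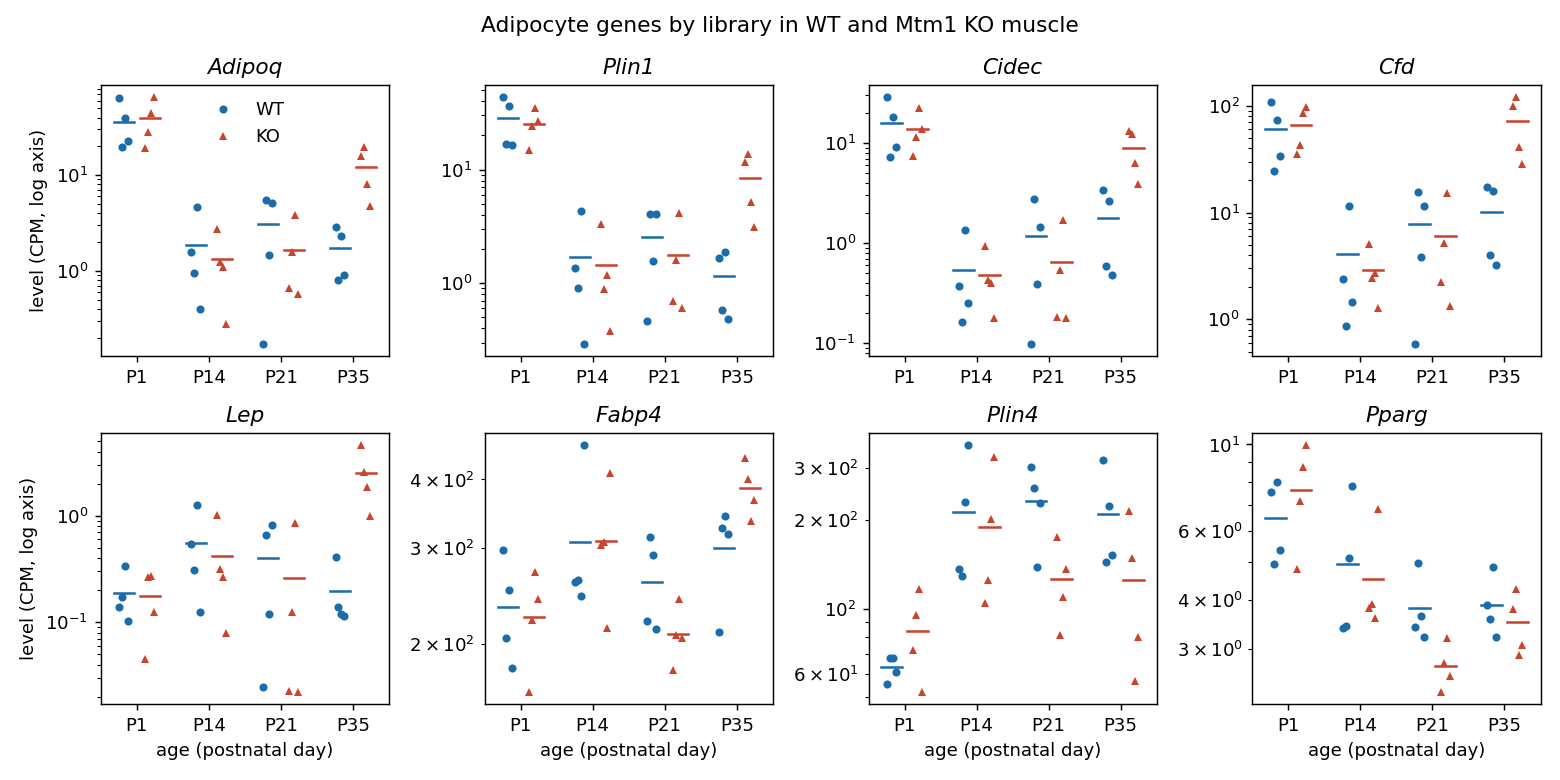
Level of each gene (CPM, log axis) in each of the 32 libraries by age; circles are WT, triangles Mtm1 KO, bars the mean of 4 libraries. Adipoq, Plin1, Cidec and Cfd stood highest at P1 in WT, fell by P14 and were higher in KO than in WT at P35, whereas Fabp4, Plin4 and Pparg were present at every age.

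KO against WT at P35 asked how the genes stood at the oldest age sampled. All 3 genes for secreted proteins and 1 of the 3 lipid droplet genes were higher in KO: 4 of the 8 genes were called, all upward, where 16% of the 15595 genes tested were called and 8.49% were called as higher. The groups did not overlap for 5 of the 8, against 39.6% of all genes tested. The median log2 fold change of the 8 was 2.59 and that of all genes tested 0.04.

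Adiponectin, a hormone made by fat cells, was measured through Adipoq at 2.85, 0.796, 2.33 and 0.899 CPM in WT and at 15.8, 19.7, 8.05 and 4.70 CPM in KO libraries. Each KO library was above each WT library, and KO replicates 1 and 2 were the highest. KO exceeded WT 7.17-fold, or by 2.84 on the log2 scale (SE 0.539, adjusted P=0.00278, edgeR's QL test). Cfd, which encodes a serine protease of the alternative complement pathway that fat cells secrete, was at 17.2, 4.03, 15.95 and 3.25 CPM in WT and at 98.4, 119.9, 40.7 and 28.6 CPM in KO. Its groups did not overlap either, and the same KO libraries led. On the log2 scale Cfd was higher by 2.86 (SE 0.647, adjusted P=0.00676, edgeR's QL test).

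Leptin signals the size of the fat store to the brain. Lep was at 0.414, 0.140, 0.119 and 0.115 CPM in WT, from 17, 6, 5 and 5 counts, and at 4.57, 2.57, 1.87 and 0.998 CPM in KO, from 274, 174, 122 and 56 counts. Even the lowest KO library was above the highest WT library. Its difference was the largest of the 8, at 3.69 on the log2 scale (SE 0.572, adjusted P=0.00102, edgeR's QL test) or 12.9-fold. In WT only replicate 1 had over 10 counts, so Lep passed the filter on low counts through the KO libraries, where it was high. It was left out where at least 10 counts were asked in every library.

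Of the droplet genes, Plin1, which guards the fat cell droplet against lipases, was at 1.68, 0.585, 1.90 and 0.484 CPM in WT and at 11.6, 13.8, 5.19 and 3.12 CPM in KO. The groups did not overlap and the log2 fold change was 2.89 (SE 0.575, adjusted P=0.00357, edgeR's QL test). Cidec, which helps droplets fuse into larger ones, was at 3.41, 0.585, 2.66 and 0.484 CPM in WT and at 13.1, 12.3, 6.34 and 3.88 CPM in KO. Its groups were also apart, but its log2 fold change of 2.35 (SE 0.625) had an adjusted P of 0.0146 in edgeR's QL test and was not called. With DESeq2 it was 0.00638 and passed.

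Plin4, a perilipin that muscle fibres also carry, was at 319, 144, 222 and 151 CPM in WT and at 214, 148, 56.7 and 80.1 CPM in KO. The groups overlapped, and the fold change on the log2 scale was -0.72 (SE 0.408, adjusted P=0.185, edgeR's QL test). Fabp4 was at 209.7, 326, 343 and 318 CPM in WT and at 438, 400.2, 336 and 367 CPM in KO. Its groups overlapped as well, at 0.39 on the log2 scale (SE 0.154, adjusted P=0.0675, edgeR's QL test). Pparg was at 3.89, 3.58, 4.87 and 3.23 CPM in WT and at 3.79, 4.28, 2.89 and 3.08 CPM in KO. Its log2 fold change was -0.12 (SE 0.1796, adjusted P=0.612, edgeR's QL test), and the groups interleaved. The gene for the regulator was not called, while those for 4 fat cell products were called higher.

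**Figure D2:**
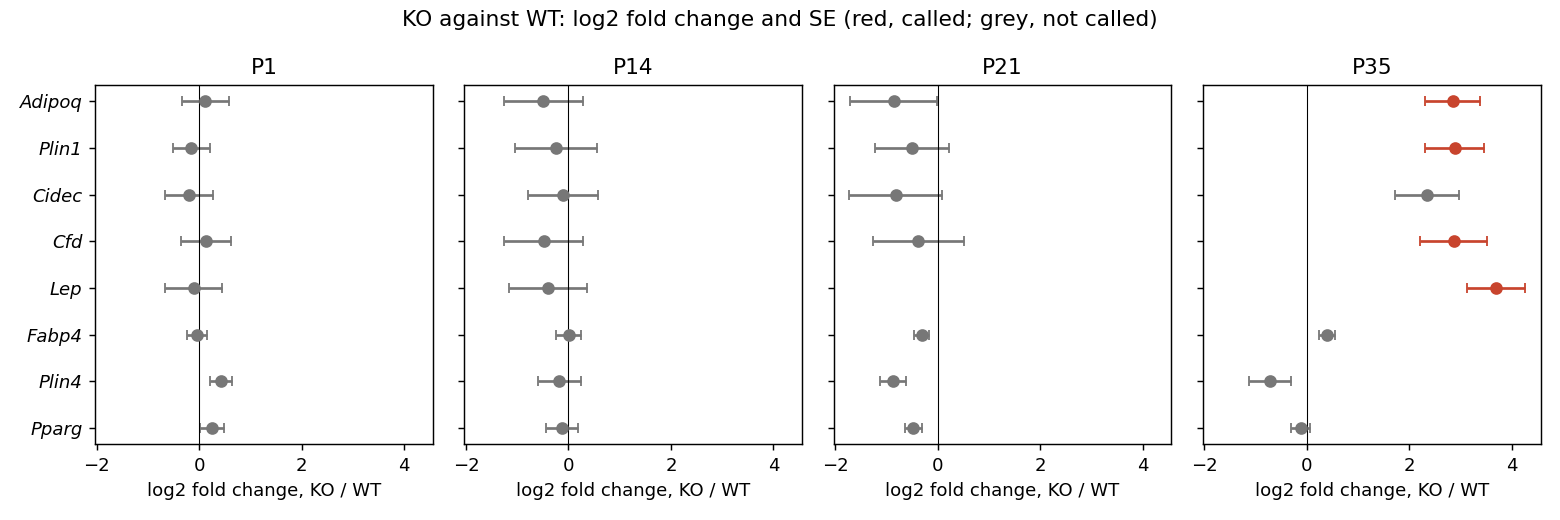
Log2 fold change of KO against WT (points) with its SE (bars) for each gene at each age, from edgeR's QL fits of the 8 libraries of an age; red points were called. At P35, Adipoq, Plin1, Cfd and Lep are called at 2.84 to 3.69, Cidec stands at 2.35, and at the other ages no gene is called; Lep was not tested at P21.

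The 4 calls did not all hold when 1 library was left out. Adipoq and Lep had adjusted P under 0.01 in each of the 8 fits (edgeR's QL test), at most 0.00959 and 0.00453. The adjusted P of Plin1 rose to 0.0120 without WT replicate 2 and to 0.0108 without WT replicate 4. That of Cfd was 0.0185, 0.0117 and 0.0156 without WT replicate 2, 3 or 4 and 0.0162 and 0.0148 without KO replicate 1 or 2. Log2 fold changes stayed between 2.48 and 4.32 for the 4 genes in these fits. With library totals in place of TMM, the median of all genes moved to 0.44 and the share of called genes that were higher from 53% to 93%, while the log2 fold changes of Adipoq, Plin1, Cfd and Lep were 3.26, 3.30, 3.27 and 4.09. Relative to that median they were still higher in KO. Cidec (2.76) and Fabp4 (0.79) were then called as well, and Pparg then had a log2 fold change of 0.28 in place of -0.12, not called.

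Markers of other cells also moved at P35, and their part in these results was not tested. Over all genes tested, 8.49% were called as higher and 7.52% as lower. Of 7 endothelial markers 4 were lower in KO, their sum at 1042-1605 CPM in WT and 563-669 CPM in KO, and of 7 macrophage markers 4 were higher, at 99.3-121 CPM and 130-196 CPM. Markers of fibro-adipogenic progenitors, mesenchymal cells between the fibres from which fat cells can form, summed to 789-878 CPM in WT and 869-1124 CPM in KO, and 0 of 7 were called (edgeR's QL test). Schwann cell markers were at 88.0-551 CPM and 296-1188 CPM with 0 of 6 called, and the muscle fibre genes at 120200-175400 CPM and 81840-110500 CPM, with Acta1 lower. Brown fat markers were at 10.7-17.1 CPM and 15.96-30.6 CPM. Ucp1, which defines brown fat, was at 0 in 5 of the 8 libraries and at most 0.0295 CPM in the others. Dio2 was called higher, at a log2 fold change of 1.48 (SE 0.313), and Prdm16 lower. Of the remaining lists, keratinocyte (4.72-6.39 and 4.44-7.21 CPM), sebaceous gland (1.11-1.70 and 1.09-1.37 CPM) and erythroid markers (189.5-584 and 222-433 CPM) overlapped between the groups. KO replicate 2, which had the highest Adipoq, stood apart in cartilage and bone markers, at 145 CPM against 3.03-5.79 CPM in the other KO libraries. Without it, the log2 fold changes were 2.48 for Adipoq, 2.53 for Plin1, 2.48 for Cfd and 3.66 for Lep.

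Other genes known from fat cells were counted from a list of 15. Over all 15595 genes tested at P35, 8.49% were called as higher in KO and 7.52% as lower, with a median log2 fold change of 0.04. From the list of 15, 3 of the 13 tested were higher in KO and 0 lower, with a median of 1.29. These were Slc7a10, a marker of white fat cells (3.35, SE 0.650), Retn, which encodes the hormone resistin (2.85, SE 0.620), and Cebpa, a partner of PPARG (1.29, SE 0.147). Of 12 genes of fat synthesis, 3 were higher, namely Scd1, Elovl6 and Agpat2, and 2 were lower, Gpam and Me1, so the list had no common direction. Scd1, which makes monounsaturated fatty acids, had a log2 fold change of 1.82 (SE 0.435), and Gpam, the first step of glycerolipid synthesis, of -0.86 (SE 0.122). Of 10 tested genes for lipid release and other droplet proteins, Plin3 (-1.11, SE 0.175) and Abhd5 (-0.62, SE 0.0847) were lower. Among the 4 receptors of adiponectin and leptin, Adipor2 was lower at -0.88 (SE 0.0806). A list of 15 other partners of PPARG and regulators of fat cell formation did not include Cebpa. In that list only Rxrg was called, at -0.85 (SE 0.202).

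KO against WT at the earlier ages asked whether the genes differed earlier. At P1, 0 of 8 genes were called by edgeR, by DESeq2 or at an unadjusted P under 0.05, against 0.0442% of 18100 genes called. Adipoq was at 63.5, 19.7, 39.3 and 22.5 CPM in WT and at 19.0, 28.5, 44.1 and 65.2 CPM in KO, and its groups overlapped over their whole range. Log2 fold changes of the 8 genes ran from -0.20 for Cidec to 0.43 for Plin4, and the groups overlapped for all 8 (8.62% of all genes did not overlap). At P14 the same counts were 0 of 8, against 0.0318% of 15728 genes called and 4.84% not overlapping, and log2 fold changes ran from -0.49 for Adipoq to 0.01 for Fabp4. With the replicate number as a block, since same-numbered libraries deviated together at P14, 98 genes were called and 0 of the 8. The main fit at P14, without this block, was wide: the SE for Adipoq, Plin1, Cfd, Lep and Cidec was 0.682 to 0.801. WT replicate 3 alone had 4.60 CPM of Adipoq against 0.397-1.57 CPM in the other WT libraries, and without it the log2 fold change of Adipoq was 0.43 in place of -0.49.

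At P21 no gene passed the test. Of the 7 genes tested, 0 were called by edgeR, against 4.67% of 15179 genes, while Plin4 and Pparg had an unadjusted P under 0.05 and DESeq2 called Plin4. All 7 log2 fold changes were negative, with a median of -0.51 against 0.01 over all genes tested. Plin4 was at 301.5, 256, 138.5 and 228 CPM in WT and at 175, 81.4, 109.5 and 136 CPM in KO. The groups overlapped through WT replicate 3, and the log2 fold change was -0.87 (SE 0.257, adjusted P=0.0401, edgeR's QL test). Pparg was at 3.41, 4.97, 3.65 and 3.22 CPM in WT and at 2.33, 2.77, 3.20 and 2.56 CPM in KO, the only one of the 8 whose groups did not overlap (24.7% of all genes did not). Its log2 fold change was -0.48 (SE 0.170, adjusted P=0.0754, edgeR's QL test). Lep had 1 count in WT replicate 1 and in KO replicates 1 and 4, under the floor of 3 counts, and was left out by the filter on low counts. Of the other lists at P21, Rxrg (-0.90), Dgat2 (-0.88) and Dio2 (1.12) were called, with 3 of 7 macrophage markers higher. Cebpa stood at 0.70 (SE 0.212, adjusted P=0.0429, edgeR's QL test) and was not called. Endothelial markers summed to 1100-1450 CPM in WT and 784-991 CPM in KO at P21, without overlap, and all 7 had negative log2 fold changes (median -0.50), although edgeR's QL test called 0 of 7. Their part in the values of the 8 genes was not tested.

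Whether the KO effect changed with age was tested as an interaction in 1 fit of all 32 libraries. Between P21 and P35, 0 of 8 genes were called (adjusted P under 0.01, edgeR's QL test), against 0.463% of 18583 genes, with 6 at an unadjusted P under 0.05 and 0 by DESeq2. The KO effect on Adipoq was larger at P35 by 3.69 on the log2 scale (SE 1.07, adjusted P=0.0644), on Lep by 4.28 (SE 1.27, adjusted P=0.0697) and on Plin1 by 3.38 (SE 1.03, adjusted P=0.0746), so a difference between the ages was not established at this threshold. Lep entered this fit although the filter on low counts left it out of KO against WT at P21. Its counts at P21 ran from 1 to 34 in WT and from 1 to 42 in KO libraries. Between P14 and P21 the count of called genes was 0 against 0.425% of all genes, and between P1 and P14 it was 0 against 0.0161%. In both of these, edgeR had 0 genes at an unadjusted P under 0.05 and DESeq2 called 0.

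The steps between ages asked how the genes changed as the muscle grew. From P1 to P14 in WT, the fat cell products Adipoq, Plin1, Cfd and Cidec fell and Plin4 rose. With these, 5 of 8 genes were called, close to the 55.1% of all 17435 genes tested, so the count alone does not set the 8 apart. Adipoq went from 19.7-63.5 CPM at P1 to 1.57, 0.946, 4.60 and 0.397 CPM at P14, with no overlap, or -4.28 on the log2 scale (SE 0.645, adjusted P=1.73e-04, edgeR's QL test). Cidec had the largest fall, -4.92 (SE 0.656), from 28.7, 7.27, 18.2 and 9.21 CPM to 0.374, 0.164, 1.34 and 0.251 CPM. For Plin1 the log2 fold change was -4.06 (SE 0.644) and for Cfd -3.91 (SE 0.798). Plin4 went the other way, from 55.6, 67.9, 68.2 and 61.0 CPM to 136, 129, 229 and 357 CPM, without overlap, at 1.74 (SE 0.301, adjusted P=4.37e-04, edgeR's QL test). Fabp4 (0.39), Pparg (-0.40) and Lep (1.57, adjusted P=0.0413, edgeR's QL test) were not called.

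In KO, 4 of 8 genes were called from P1 to P14, again close to the share of all genes, 52.6% of 17719. All 4 fell: Adipoq by 4.89 on the log2 scale (SE 0.580), Cidec by 4.83 (SE 0.477), Cfd by 4.53 (SE 0.471) and Plin1 by 4.15 (SE 0.540). Plin4 was at 72.2, 95.3, 117 and 52.2 CPM at P1 and at 104, 125, 200.1 and 325 CPM at P14, overlapping, at 1.14 on the log2 scale (adjusted P=0.0173, edgeR's QL test). With library totals in place of TMM, the median of all genes moved to -0.85 in WT and -0.81 in KO, the share of called genes that were higher moved to 13.7% and 14.5%, and Fabp4 had log2 fold changes of -0.41 and -0.29 in place of 0.39 and 0.43, not called under either scaling. Pparg was then called as lower in both genotypes, at -1.21 and -1.53 in place of -0.40 and -0.79, and Plin4 in KO had 0.39 in place of 1.14. The other fat cell genes moved as Adipoq did for the most part: 12 of 15 were lower and 2 higher in WT, and 13 lower and 1 higher in KO. Over all genes tested, 30.4% and 29.1% were called as lower. Adig, Retn, Adrb3, Mrap and Klb had too few counts to be tested in KO against WT at P14. They entered this step through P1, where they were higher, so a fall was the likely outcome for them.

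Markers of other cells moved over the same step in both directions, and their part in these changes was not tested. Over all genes tested, 24.7% in WT and 23.5% in KO were called as higher. All 8 muscle fibre markers rose in both genotypes, as Plin4 did in WT, with a median log2 fold change of 3.63 in WT and 4.14 in KO, and 6 of 7 endothelial markers rose in WT and 5 of 7 in KO. All 8 keratinocyte markers fell in both genotypes, their sum going from 1850-6801 CPM at P1 to 2.97-5.09 CPM at P14, and so did all 4 cartilage and bone markers, from 316-638 CPM to 3.79-25.4 CPM. Only 2 of the keratinocyte and 2 of the cartilage and bone markers were tested in KO against WT at P14. The others passed the filter on low counts through P1, where they were high. Of 7 macrophage markers 5 fell in each genotype, and of 5 erythroid markers 3 fell in WT and 4 in KO. Ucp1 was at 0.0114-0.661 CPM in the WT libraries at P1. Within the 8 P1 libraries, Pearson's r with Adipoq, over deviations from the group means, ran over the 10 marker lists from -0.507 for endothelium to 0.413 for macrophages. It was -0.11 for keratinocyte, -0.473 for cartilage and bone, -0.44 for muscle fibre, 0.407 for fibro-adipogenic progenitor and 0.257 for erythroid markers, which is a description of 8 libraries and no test.

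**Figure D3:**
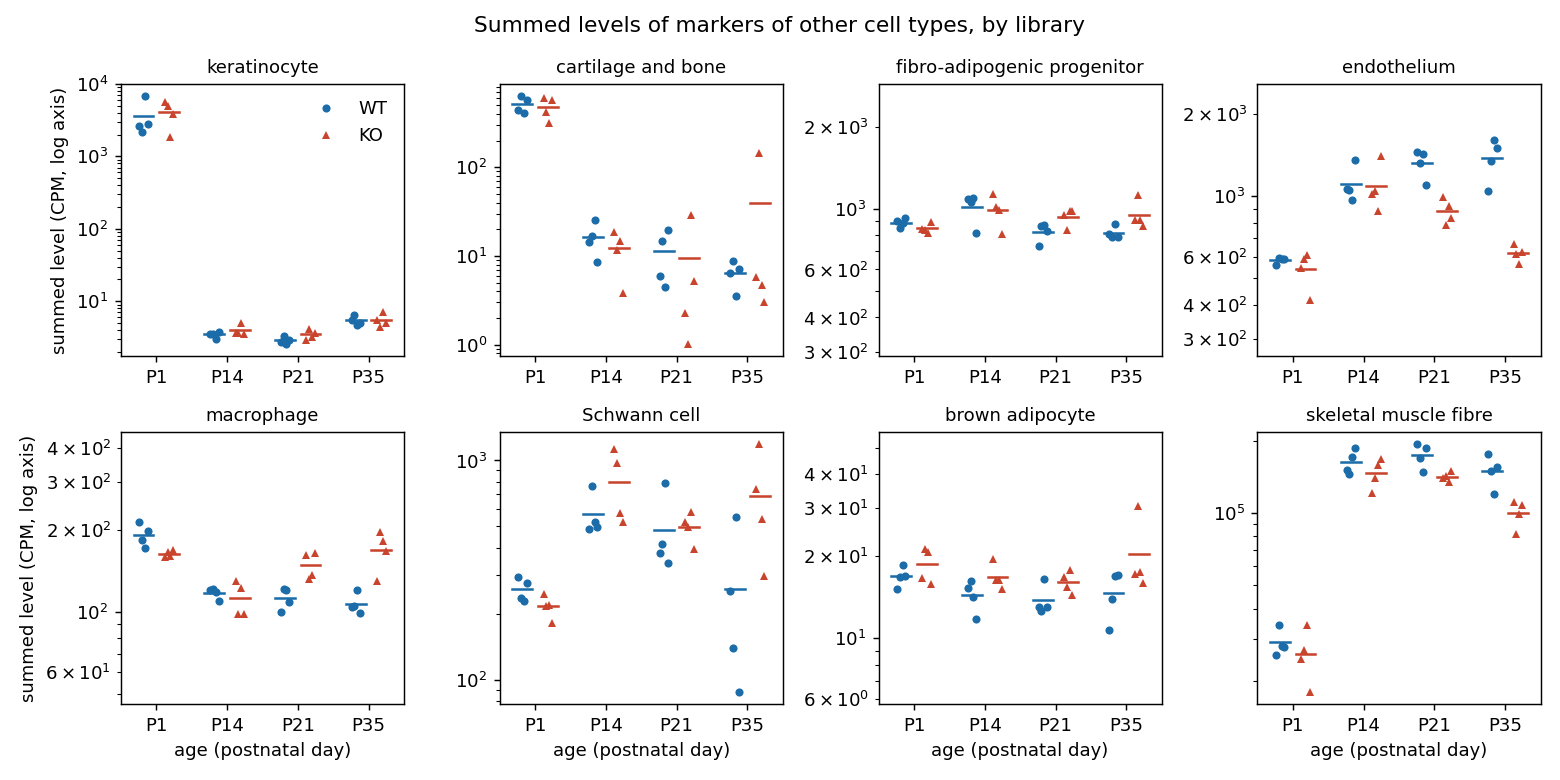
Summed level (CPM, log axis) of the marker lists of other cell types in each library by age; circles are WT, triangles KO, bars the mean of 4 libraries. Keratinocyte and cartilage and bone markers are highest at P1, endothelial markers are lower and macrophage markers higher in KO at P35, and 1 KO library at P35 stands at 145 CPM for cartilage and bone.

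The later steps were tested in each genotype in turn. Successive steps share the libraries of the age between them, as do the steps and the comparisons of KO with WT. From P14 to P21 and from P21 to P35 in WT, 0 of 8 and 0 of 7 genes tested were called by edgeR and 0 by DESeq2, with 0 at an unadjusted P under 0.05, against 5.53% of 15337 and 2.45% of 15039 genes. In KO from P14 to P21, 0 of 8 were called, against 7.04% of 15585 genes. Pparg stood at -0.75 on the log2 scale (adjusted P=0.0311, edgeR's QL test) and Fabp4 at -0.58 (adjusted P=0.0373, edgeR's QL test), both with an unadjusted P under 0.05, and DESeq2 called Pparg.

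From P21 to P35 in KO, 2 of 8 genes were called, both higher, against 4.01% of 15734 genes. Fabp4 went from 179, 208, 241.5 and 205 CPM to 438, 400.2, 336 and 367 CPM, with no overlap, at 0.90 on the log2 scale (SE 0.113, adjusted P=0.00208, edgeR's QL test). Cidec went from 0.181, 0.541, 1.68 and 0.178 CPM to 13.1, 12.3, 6.34 and 3.88 CPM, also with no overlap, at 3.77 (SE 0.671, adjusted P=0.00588, edgeR's QL test). Its counts at P21 were 8, 26, 82 and 8, so Cidec passed the filter on low counts through P35, where it was high. The same held for Lep, with 1, 6, 42 and 1 counts at P21. Cfd (3.59, adjusted P=0.0109), Adipoq (2.87, adjusted P=0.0131), Lep (3.25, adjusted P=0.0244) and Plin1 (2.26, adjusted P=0.0335) were not called by edgeR's QL test. KO replicate 3 at P21 stood apart, with 3.84 CPM of Adipoq against 0.578-1.56 CPM in the other 3, and with cartilage and bone markers at 29.3 CPM against 1.02-5.27 CPM. Without it, 5 of 8 genes were called, while without KO replicate 1, 2 or 4 at P21 or 1 or 3 at P35 only Fabp4 was. Fabp4 kept an adjusted P under 0.01 in each of these 8 fits. A difference between the genotypes in this step was not established, since the interaction had an adjusted P of 0.222 for Fabp4 and 0.117 for Cidec in edgeR's QL test. Over the same step in KO, 3 of 7 endothelial markers were lower (sums of 784-991 and 563-669 CPM), as were 5 of 5 erythroid markers (median log2 fold change -3.41) and the muscle fibre genes Acta1 and Myh1, and their part in the rise of the 2 genes was not tested.

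From library to library, 4 of the other 7 genes varied with Adipoq and 3 did not follow it. After the mean of each of the 8 groups was subtracted from log2 CPM, Pearson's r with Adipoq over the 32 libraries was 0.958 for Plin1, 0.947 for Cfd, 0.93 for Cidec and 0.871 for Lep. It was 0.171 for Pparg, 0.0016 for Fabp4 and -0.15 for Plin4. Of 18583 genes, the 5 most like Adipoq by this measure were Plin1, Cfd, Cidec, Lgals12 and Hp (0.958 to 0.872), and Lep came sixth. Over the 24 libraries after P1 the values were close, at 0.966 for Plin1, 0.945 for Cfd, 0.937 for Cidec and 0.926 for Lep. Over the 32 libraries, Fabp4 and Pparg went with each other (0.772), and Plin4 with Pparg more loosely (0.477). Over the 24 libraries after P1, the values for these pairs were 0.732 and 0.624. Pparg also had an r of 0.39 with Cfd and 0.374 with Cidec over the 32 libraries. Both genes of each pair come from 1 library, so they share its depth and its dissection, and no test was made of these values. Among marker lists, the sum for fibro-adipogenic progenitors had the highest r with Adipoq (0.646) and that for endothelium the lowest (-0.503).

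**Figure D4:**
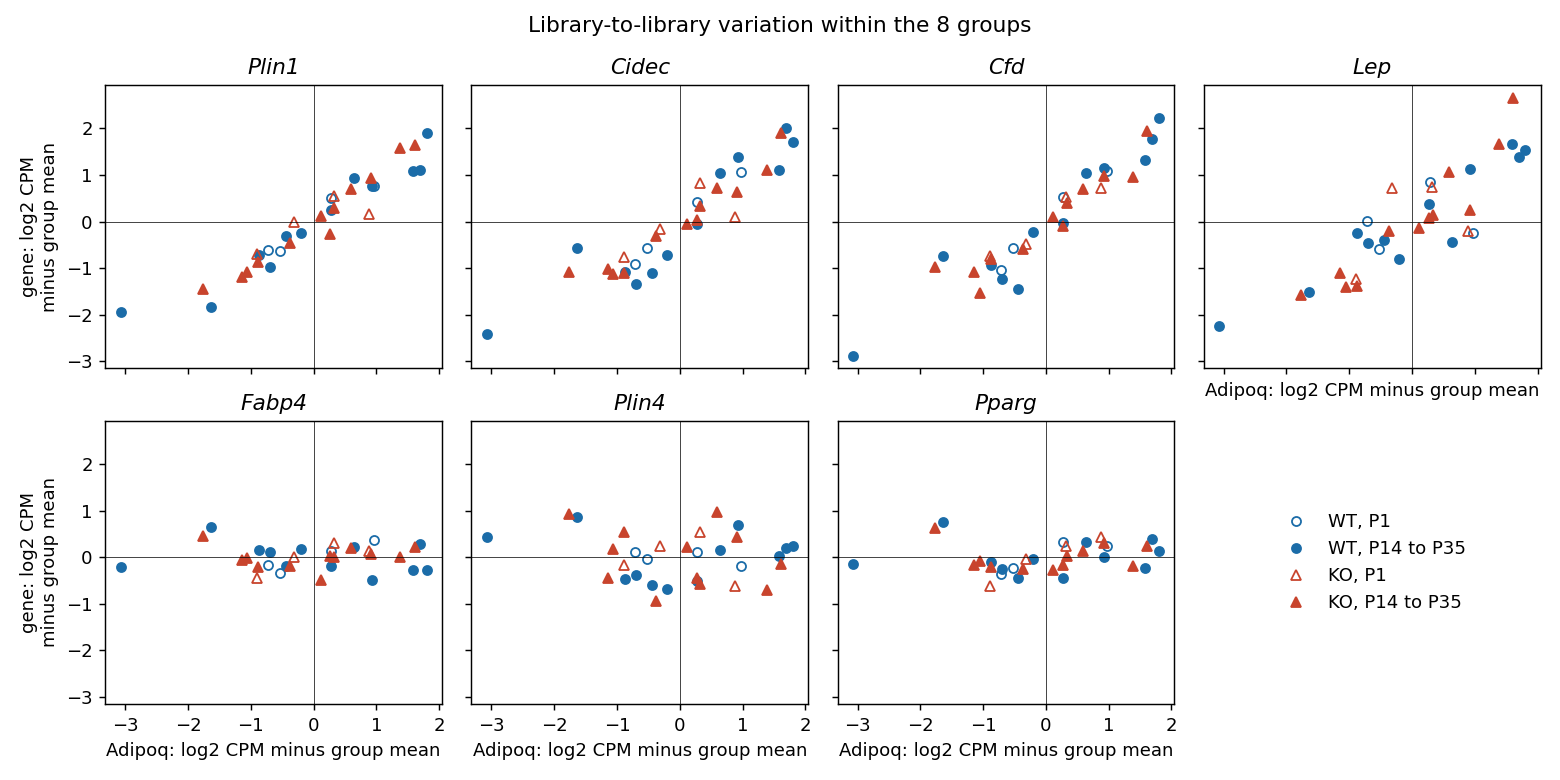
Log2 CPM minus the group mean of each gene (vertical) against that of Adipoq (horizontal) in the 32 libraries; circles are WT, triangles KO, open symbols P1. Plin1, Cidec, Cfd and Lep rise with Adipoq from library to library (r from 0.871 to 0.958), whereas r is -0.15 to 0.171 for Fabp4, Plin4 and Pparg.

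Counts of Lep, Cfd and Cidec relative to those of Adipoq did not overlap between P1 and P35. Those of Plin1 overlapped between P1 (0.415-0.929) and P35 (0.538-0.816). For Cidec they were 0.210-0.509 at P1, 0.173-0.643 at P14, overlapping P1, and 0.538-1.2 at P35. This was looked at after the levels had been seen and is given as a description, with no test. Lep counts per Adipoq count ran from 0.00191 to 0.00937 in the P1 libraries and from 0.242 to 0.376 at P14, so that Lep was scarce at P1 when Adipoq was abundant, although it rested on 4 to 65 counts per library at P14. Cfd counts per Adipoq count were 1.25-1.94 at P1, 0.923-4.64 at P14, overlapping P1, and 3.62-6.86 at P35. At P35 the WT and KO libraries overlapped in each of the 4 proportions: 0.538-0.816 and 0.644-0.738 for Plin1, 0.538-1.2 and 0.621-0.828 for Cidec, 3.62-6.86 and 5.05-6.23 for Cfd, and 0.0510-0.176 and 0.130-0.290 for Lep.

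**Figure D5:**
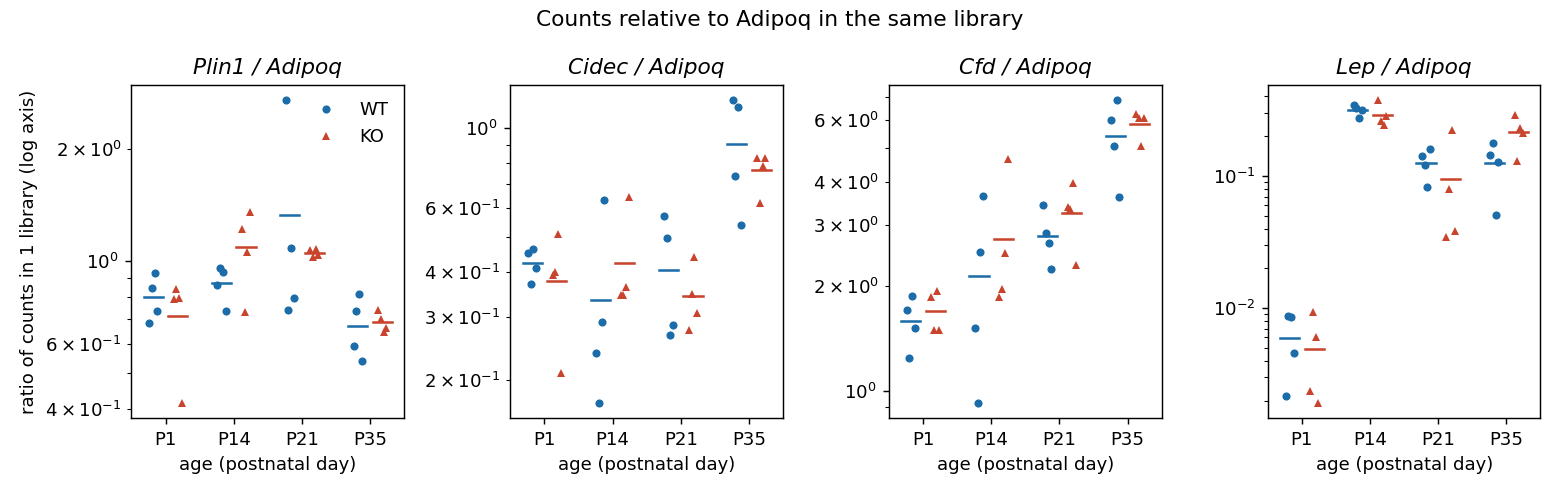
Counts of Plin1, Cidec, Cfd and Lep divided by those of Adipoq in the same library (log axis), by age; circles are WT, triangles KO, bars the mean of 4 libraries. Lep per Adipoq is at most 0.00937 in the P1 libraries and at least 0.242 in the P14 libraries, Cfd per Adipoq is 3.62 or more at P35, and WT and KO overlap at P35.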

How the data were processed

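Poly(A) RNA of TA muscle was sequenced as paired-end reads from strand-specific libraries. Per the labels, the authors aligned reads to GRCm38 with STAR 2.6.1 and deposited expected counts per gene from RSEM 1.2.22, with no further normalization. The paper names HTSeq as the counter, and the annotation release and strand setting are not given in the sources used here. Expected counts were rounded (4.26% of values were not whole). Gene symbols came from a name table that matched 54723 of 54838 identifiers, and positions from GENCODE M21.

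Each of the 8 genes and the gene lists was chosen with earlier results of these data known. Groups were taken from genotype, age and replicate in the labels. For each pair of groups, the 8 libraries were fitted over all genes passing filterByExpr with edgeR 4.0.16 (TMM, glmQLFit, glmQLFTest) in R 4.3.3, and interactions in 1 fit of 32 libraries. The lists covered other adipocyte-enriched genes, fat synthesis, lipid mobilisation and droplet proteins, adipokine receptors, PPARG partners and regulators, and markers of 10 cell types. Where called genes of a list were named, they were at most the 3 with the smallest adjusted P per comparison, or all where 5 or fewer. Some counts, among them those of most cell type markers, were given without names. Likeness to Adipoq was computed on log2 CPM (prior count 2). Libraries of a group were taken as separate mice. No 2 libraries agreed within sampling noise. Counting depth limits Lep, where the floor of 3 counts was 0.0225-0.0738 CPM. Scripts were tested on simulated data.

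Alternatives were DESeq2 1.42.0, its size factors, library totals, other filters on low counts, an adjusted P under 0.05, a shared fit, leaving out each library, and a replicate block. Same-numbered libraries deviated together at P14 (r 0.295 to 0.731) and not at the other ages or between ages. The numbers were therefore read as a pairing at P14 alone, and only in the alternative fit with the block. The main fit at P14 ignored them. Sequences were read from RefSeq promoter windows, which held 7 of the 8 genes, and matched with Python 3.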

Additional observations from a re-analysis of the deposited data

Results flagged for a closer look

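Of 64 groups of 4 libraries (8 genes in 8 groups), 5 held 1 library whose gap to the nearest other library, divided by the whole range of the group, was above Dixon's 95% critical value for 4 samples. For independent values with a normal spread, chance gives about 1 in 20 groups. The levels were taken as CPM without logs and several of the genes varied together, so that rate is only a rough guide here. All 5 flagged libraries were the highest of their group. Fabp4 was at 462.1 CPM in WT P14 replicate 4, against 244.7 to 261.7 CPM in the other 3 libraries (gap over range 0.922). Pparg was at 6.837 CPM in KO P14 replicate 4, against 3.597 to 3.917 CPM (0.901). Cfd was at 11.51 CPM in WT P14 replicate 3, against 0.8736 to 2.384 CPM (0.858). Lep was at 0.4136 CPM in WT P35 replicate 1, against 0.1153 to 0.1404 CPM (0.916). Lep was at 0.8617 CPM in KO P21 replicate 3, against 0.02223 to 0.1248 CPM (0.878).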

How the results depend on the processing

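Of 104 counts of called genes under other tools, scalings, filters or thresholds, 94 stayed within 1.5 times the reported count. In most comparisons the reported count was 0, and a 0 that stayed 0 is among these, so the total says little about the calls. From P21 to P35 in KO (2 reported), 4 genes were called by DESeq2 and without a filter on low counts, 1 with at least 10 counts in every library, 5 in 1 fit of 32 libraries, 6 at an adjusted P under 0.05 and 0 with a replicate block, where the numbers pair no libraries. The block gave 5, 6 and 5 for KO against WT at P35 and for WT and KO from P1 to P14 (4, 5 and 4 reported), and 0 elsewhere. For KO against WT at P21 (0 reported) DESeq2 and an adjusted P under 0.05 called 1, and from P14 to P21 in KO (0 reported) they called 1 and 2. The cause was not tested. Leaving out 1 library gave 2 to 4 called genes for KO against WT at P35 (2 without WT P35 replicate 2 or 4), 5 to 6 for WT and 4 to 5 for KO from P1 to P14, 1 to 5 for KO from P21 to P35, and 0 in the other comparisons. Signs turned only for values not called. Fabp4 at P14 was -0.0010 with DESeq2 and -0.0009811 with its size factors. Library totals gave 0.0253 for Cidec at P14, 0.28 for Pparg at P35, and -0.41 and -0.29 for Fabp4 from P1 to P14 in WT and KO. The replicate block gave 0.0255 for Cidec at P14, where it pairs libraries and changed no call among the 8 genes. For Plin4 from P21 to P35 in KO, the values were -0.003406 with DESeq2, -0.003276 with its size factors, -0.13 with the replicate block and -0.008738 in 1 fit of 32 libraries. With 1 library left out, log2 fold changes of KO against WT at P1 ran from -0.24 to 0.54 (Adipoq), -0.36 to 0.13 (Plin1), -0.15 to 0.0914 (Fabp4), -0.14 to 0.58 (Cfd), -0.41 to 0.34 (Lep) and -0.55 to 0.25 (Cidec). At P14 they ran from -1.09 to 0.43 (Adipoq), -1.06 to 0.73 (Plin1), -0.58 to 0.19 (Plin4), -0.17 to 0.27 (Fabp4), -0.39 to 0.18 (Pparg), -0.91 to 0.86 (Cfd), -1.30 to 0.34 (Lep) and -0.64 to 0.87 (Cidec). At P21 they ran from -1.42 to 0.19 (Cfd) and -1.93 to 0.0198 (Cidec). For Plin4, the step from P21 to P35 in KO ran from -0.39 to 0.24 and the KO effect at P35 against P21 from -0.26 to 0.41. Library totals moved the all-gene median (log2) to 0.20 at P21 and 0.16 from P21 to P35 in KO, and the share of called genes that were higher from 68% to 90.9% and from 51.7% to 83.4%. With 4 libraries a group and as few as 1 count of Lep in a library at P21, small differences were not detectable.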
